A study of Mus musculus with 16 samples.

Results

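Zinc finger protein genes whose platform symbol begins with Zfp and a number were followed in brain RNA of neonatal mice that lack a connexin or carry a reduced dose of one. Of the 28704 spots on each array, 278 carried such a symbol alone, and they stand for 165 genes. Another 10 spots list several symbols and were left out. Enough values for a test were present for 144 genes, 96 of them on a single spot, and 21 genes could not be tested. The samples fall into 4 groups of 4 arrays. Mice null for Cx43, heterozygous for Cx43 or null for Cx32, all of strain C57BL, were set against wild-type mice. Wild-type replicates 1 and 2 are C57BL/6j, and the labels of wild-type replicates 3 and 4 name no strain. Each brain sample was hybridised beside 1 common reference (Cy5) that pools RNA of adult C57BL mice of both sexes from aorta, brain, heart, kidney, liver, lung, gonads, spleen and stomach. Brain carried Cy3 on the arrays whose labels state its dye, which those of wild-type replicates 3 and 4 do not. The sources used here do not say if 1 animal or several made up a sample, and the p-values therefore cover only the variation among these 16 samples.

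Most Zfp genes encode transcription factors with repeated zinc fingers that read DNA sequence. Many carry a KRAB domain, which recruits the co-repressor Trim28 and with it histone methyltransferases, deacetylases and DNA methyltransferases to silence transposable elements and imprinted genes. Others bind RNA, act as ubiquitin or SUMO ligases, or serve neural differentiation, and many KRAB genes lie in clusters of recent duplicates with similar sequences. A cDNA spot for such a gene may bind the transcript of a near copy, so the values of single genes in these clusters are uncertain.

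Values are log2 ratios, brain over the tissue reference, or differences of these ratios between groups. Each array was centred on its median, so 0 stands for that median and not for equal signal in brain and reference. The array medians as deposited ran from -0.13 to 0.28. Ratios were present for 21010 to 24819 spots per array. Gja1, which encodes connexin 43, had log2 ratios of -0.60, -1.71, -2.10 and -2.92 in Cx43 null, -1.09, -1.27, -1.25 and -1.86 in Cx43 heterozygous, 0.13, 0.10, -0.068 and 0.27 in Cx32 null and 2.47, 1.13, 1.48 and 1.17 in wild-type brain, and no spot names Gjb1, the gene of connexin 32. Neuron markers lay above the reference on every array (4 of 8 tested, array medians 1.64 to 2.97) and markers of liver and other reference tissues below it (5 of 8 tested, -5.53 to -2.98). Markers of other cell types differed from wild type too. The microglial markers C1qa and C1qb fell in all 3 lines and Tyrobp rose in Cx43 heterozygous brain (3 of 6 tested). The neuron marker Syt1, the astrocyte marker Aldoc (3 of 6 tested), the oligodendrocyte marker Mbp (1 of 6 tested) and the red blood cell marker Alas2 (2 of 4 tested) fell in Cx43 heterozygous and Cx32 null brain. The radial glia marker Fabp7 and the endothelial marker Cldn5 (3 of 6 tested) rose in Cx43 heterozygous brain. Among markers of the reference tissues Cyp2e1 fell in Cx43 heterozygous and Sftpc in Cx32 null brain. The array medians of the microglial list ran from -1.89 to -0.85 in Cx43 null, -1.81 to -1.46 in Cx43 heterozygous, -1.81 to -0.93 in Cx32 null and -0.79 to -0.23 in wild-type brain, and the part of these markers in the results on Zfp genes was not tested. Wild-type replicate 1 stood apart: over blocks of spots its median correlation with the other arrays was 0.64, against 0.84 to 0.96 on each of the others. In 5 of the 48 blocks of 598 consecutive spots, 1 or more arrays, in each case with at least 1 wild-type array, were out of step with the others. The spots tested for 16 Zfp genes lay partly there, and for 9 of these genes wholly. The spread between arrays was larger in wild type, where the median SD over Zfp genes was 0.39, than in Cx43 null (0.25), Cx43 heterozygous (0.24) and Cx32 null brain (0.22).

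Zfp genes tended to be higher in the connexin lines than in wild-type brain. Rose and fell mark a Benjamini-Hochberg adjusted p under 0.05 in limma, adjusted over all transcripts. In Cx43 heterozygous brain 39 of 144 rose and 10 fell, in Cx32 null brain 32 rose and 11 fell, and in Cx43 null brain 12 rose and 7 fell. In Cx43 heterozygous brain 27.1% of Zfp genes rose and 6.94% fell, beside 13.5% and 17.5% of all 14292 transcripts. In Cx32 null brain 22.2% of Zfp genes rose and 7.64% fell, beside 13.1% and 14.3% of all transcripts. In Cx43 null brain 8.33% of Zfp genes rose and 4.86% fell, beside 4.37% and 6.43% of all transcripts. Falls outnumbered rises among all transcripts after centring of the arrays, but not as deposited in Cx43 heterozygous (21.2% rose and 12.6% fell) and Cx32 null brain (15.5% and 11.6%), where 53 and 37 Zfp genes rose and 7 and 8 fell. The median log2 change over the 144 genes was 0.16 in Cx43 null, 0.29 in Cx43 heterozygous and 0.27 in Cx32 null brain, and over all transcripts it was 0.0097, -0.015 and -0.031. Over the 3 comparisons with wild type 62 Zfp genes (43.1%) passed at least once, beside 39.6% of all transcripts. Of the Zfp genes 50 (34.7%) rose and 12 (8.33%) fell at least once, beside 19% and 20.6% of all transcripts. No Zfp gene passed in opposite directions, as 7 of all transcripts did. The 3 comparisons share their wild-type arrays.

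**Figure D1:**
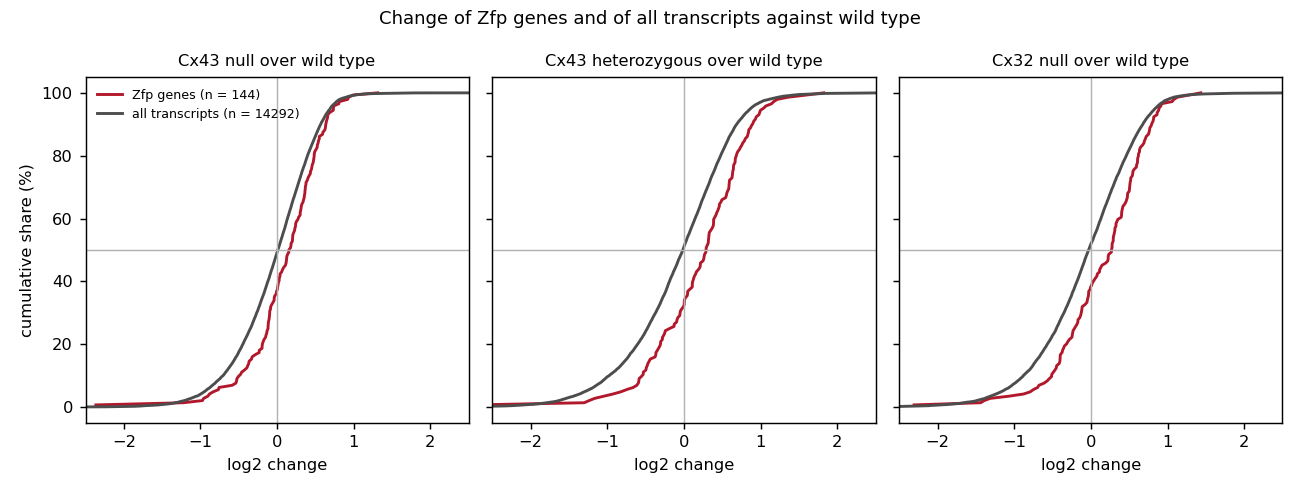
Cumulative share, in percent, of the log2 change against wild type for the 144 Zfp genes tested (red) and for all 14292 transcripts (grey), with 1 panel per line. The red curve lies to the right of the grey one over most of its course, with medians of 0.16, 0.29 and 0.27 for Zfp genes against 0.0097, -0.015 and -0.031 for all transcripts, from the left panel to the right.

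The counts in Cx43 heterozygous and Cx32 null brain moved less with the choice of arrays than those in Cx43 null brain. With each array left out in turn, 36 to 52 Zfp genes passed in Cx43 heterozygous and 28 to 47 in Cx32 null brain, the 28 without Cx32 null replicate 4. In Cx43 null brain the 19 calls became 9, 3, 12 and 30 without wild-type replicates 1, 2, 3 and 4, and 5, 0 and 4 without Cx43 null replicates 2, 3 and 4. They became 11, 10, 10 and 8 without Cx43 heterozygous replicates 1 to 4 and 11, 10, 11 and 11 without Cx32 null replicates 1 to 4. Without wild-type replicate 1 and the blocks out of step, 5 Zfp genes rose and 4 fell in Cx43 null, 29 rose and 9 fell in Cx43 heterozygous and 24 rose and 10 fell in Cx32 null brain. The shares of all transcripts that passed under these settings are not given here. The counts therefore do not show how Zfp genes compared with all transcripts there.

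Zfp genes lower in all 3 lines numbered 6, which is 4.17% of those tested beside 5.46% of all transcripts. They are Zfp873, Zfp281, Zfp131, Zfp61, Zfp33b and Zfp821. Zfp873, read by 1 spot, had log2 ratios of 0.55, -0.68, -1.72 and -0.81 in Cx43 null, -0.98, -0.91, -1.10 and -1.17 in Cx43 heterozygous, -0.56, -0.65, -0.48 and -0.75 in Cx32 null and 3.04, 2.02, 1.60 and 0.13 in wild-type brain. Wild-type brain was high but widely spread, and its lowest array lay above all heterozygous and Cx32 null arrays but below 1 Cx43 null array. Its fall was the largest of any Zfp gene tested in each line: -2.36 ± 0.46 SE, adjusted p = 0.0102 in Cx43 null, -2.74 ± 0.46 SE, adjusted p = 0.000641 in Cx43 heterozygous and -2.31 ± 0.46 SE, adjusted p = 0.00274 in Cx32 null brain, or 5.15, 6.67 and 4.95-fold lower.

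Zfp281 encodes a factor that binds GC-rich promoters and controls pluripotency genes in mouse embryonic stem cells. Its tested spot read -0.42, -0.54, -0.97 and -0.49 in Cx43 null, -0.47, -0.28, -0.54 and -0.44 in Cx43 heterozygous, -0.79, -0.72, -0.89 and -0.89 in Cx32 null and 1.37, 0.94, 0.15 and 0.0024 in wild-type brain. All 12 arrays of the lines read lower than the lowest wild-type one. The log2 change was -1.22 ± 0.24 SE, adjusted p = 0.0104 in Cx43 null, -1.05 ± 0.24 SE, adjusted p = 0.00451 in Cx43 heterozygous and -1.44 ± 0.24 SE, adjusted p = 0.00113 in Cx32 null brain. A second Zfp281 spot, in a block out of step and with too few values for a test, moved the other way by 1.12, 0.89 and 1.01. With at least 2 values per group, which admits this spot, the change of the gene in Cx43 null, Cx43 heterozygous and Cx32 null brain was -0.20, -0.14 and -0.45, and it passed in none.

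Zfp131, a zinc finger gene with a BTB domain, was read by 4 spots. The mean over spots with a value was 1.36, 0.83, 0.080 and 0.94 in Cx43 null, 0.68, 0.37, 0.32 and 0.50 in Cx43 heterozygous, 0.42, 0.43, 0.26 and 0.46 in Cx32 null and 2.50, 1.49, 1.50 and 1.34 in wild-type brain. On wild-type replicate 1 the spots with wild-type means of 2.01 and 0.34 had no value. Its reading of 2.50 thus leaves out the spot with the lowest ratio, and wild type and the lines are not averaged over the same spots. Heterozygous and Cx32 null arrays all lay below wild type, and 1 Cx43 null array overlapped it. The log2 change was -0.90 ± 0.26 SE, adjusted p = 0.0377 in Cx43 null, -1.24 ± 0.26 SE, adjusted p = 0.00261 in Cx43 heterozygous and -1.32 ± 0.26 SE, adjusted p = 0.00252 in Cx32 null brain. Zfp61 read 0.59, -0.053, -0.55 and -0.31 in Cx43 null, 0.25, 0.29, -0.35 and -0.39 in Cx43 heterozygous, -0.44, -0.48, -0.48 and -0.66 in Cx32 null and 1.38, 0.88, 0.85 and 0.39 in wild-type brain, and the mean was lowest in Cx32 null brain. It fell with a log2 change of -0.96 ± 0.25 SE, adjusted p = 0.0274 in Cx43 null, -0.93 ± 0.25 SE, adjusted p = 0.0108 in Cx43 heterozygous and -1.39 ± 0.25 SE, adjusted p = 0.00162 in Cx32 null brain.

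Zfp33b had no value on wild-type replicate 4. It read 1.06, 0.67, -0.048 and 0.59 in Cx43 null, 0.25, 0.26, -0.073 and 0.23 in Cx43 heterozygous, 0.020, 0.51, 0.52 and 0.77 in Cx32 null and 1.26, 1.29 and 1.45 on the 3 wild-type arrays with a value, with no overlap between any line and wild type. The log2 change was -0.77 ± 0.24 SE, adjusted p = 0.048 in Cx43 null, -1.17 ± 0.24 SE, adjusted p = 0.00231 in Cx43 heterozygous and -0.88 ± 0.24 SE, adjusted p = 0.0134 in Cx32 null brain. The call in Cx43 null brain was lost under 20 of 26 alternatives. Zfp821, on 4 spots, averaged 1.44 ± 0.16 in Cx43 null, 1.53 ± 0.17 in Cx43 heterozygous, 1.48 ± 0.11 in Cx32 null and 2.02 ± 0.35 in wild-type brain (SD, n = 4 each). Its change of -0.59 ± 0.18 SE, adjusted p = 0.0459 in Cx43 null brain was lost under 19 of 27 alternatives, that in Cx43 heterozygous brain under 17 and that in Cx32 null brain under 10.

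Zfp genes higher in all 3 lines numbered 8, or 5.56% of those tested beside 2.99% of all transcripts. They are Zfp189, Zfp451, Zfp94, Zfp316, Zfp446, Zfp319, Zfp507 and Zfp623. Zfp189, a KRAB zinc finger gene studied in mouse prefrontal cortex for resilience to social stress, read 0.29, -0.18, -0.29 and -0.34 in Cx43 null, 0.085, -0.19, 0.12 and -0.052 in Cx43 heterozygous, 0.46, 1.12, -0.044 and -0.0033 in Cx32 null and -1.59, -0.70 and -0.86 on the 3 wild-type arrays with a value. All arrays of the lines lay above wild type. The rise was 0.92 ± 0.28 SE, adjusted p = 0.0445 in Cx43 null, 1.04 ± 0.28 SE, adjusted p = 0.0105 in Cx43 heterozygous and 1.43 ± 0.28 SE, adjusted p = 0.00247 in Cx32 null brain.

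Zfp451, whose human counterpart encodes a SUMO ligase, read 0.68, 1.00, 0.63 and 0.93 in Cx43 null, 1.57, 0.89, 0.98 and 1.03 in Cx43 heterozygous, 0.78, 0.83, 0.69 and 0.98 in Cx32 null and 0.26, -0.060, 0.36 and 0.18 in wild-type brain. The groups did not overlap with wild type, and both of its spots were higher in each line. The log2 change was 0.62 ± 0.18 SE, adjusted p = 0.036 in Cx43 null, 0.93 ± 0.18 SE, adjusted p = 0.00134 in Cx43 heterozygous and 0.63 ± 0.18 SE, adjusted p = 0.0152 in Cx32 null brain. Zfp94 read -0.073, 0.15, 0.10 and -0.065 in Cx43 null, -0.014, -0.081, 0.26 and 0.23 in Cx43 heterozygous, 0.075, 0.30, 0.29 and 0.24 in Cx32 null and -0.47, -0.49 and -0.75 on the 3 wild-type arrays with a value, again without overlap. It rose by 0.60 ± 0.17 SE, adjusted p = 0.0344 in Cx43 null, 0.67 ± 0.17 SE, adjusted p = 0.00714 in Cx43 heterozygous and 0.80 ± 0.17 SE, adjusted p = 0.00381 in Cx32 null brain.

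Zfp316 read 0.30, 0.38, 1.14 and 0.70 in Cx43 null, 0.64, 0.38, 0.80 and 0.63 in Cx43 heterozygous, 0.43, 0.56, 0.52 and 0.82 in Cx32 null and -0.69, -0.0097, 0.28 and -0.28 in wild-type brain. Every array of the lines lay above the highest wild-type array. The rise was 0.81 ± 0.22 SE, adjusted p = 0.0312 in Cx43 null, 0.79 ± 0.22 SE, adjusted p = 0.0123 in Cx43 heterozygous and 0.76 ± 0.22 SE, adjusted p = 0.0177 in Cx32 null brain. Zfp446 averaged -0.37 ± 0.23 in Cx43 null, 0.14 ± 0.23 in Cx43 heterozygous, -0.15 ± 0.11 in Cx32 null and -1.03 ± 0.45 in wild-type brain (SD, n = 4 each) and was highest in Cx43 heterozygous brain (1.17 ± 0.21 SE, adjusted p = 0.000906). Zfp319 changed by 0.65 ± 0.20 SE, adjusted p = 0.0459 in Cx43 null brain and Zfp507 by 0.64 ± 0.20 SE, adjusted p = 0.0461, both overlapping wild type there. Both had the same direction in Cx43 heterozygous (0.59 and 0.63) and Cx32 null brain (0.70 and 0.54). Zfp623 passed only through 1 spot in a block out of step, with differences of 1.29, 1.15 and 1.41 from wild type in Cx43 null, Cx43 heterozygous and Cx32 null brain, while its other tested spot differed by -0.0090, -0.036 and -0.029.

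**Figure D2:**
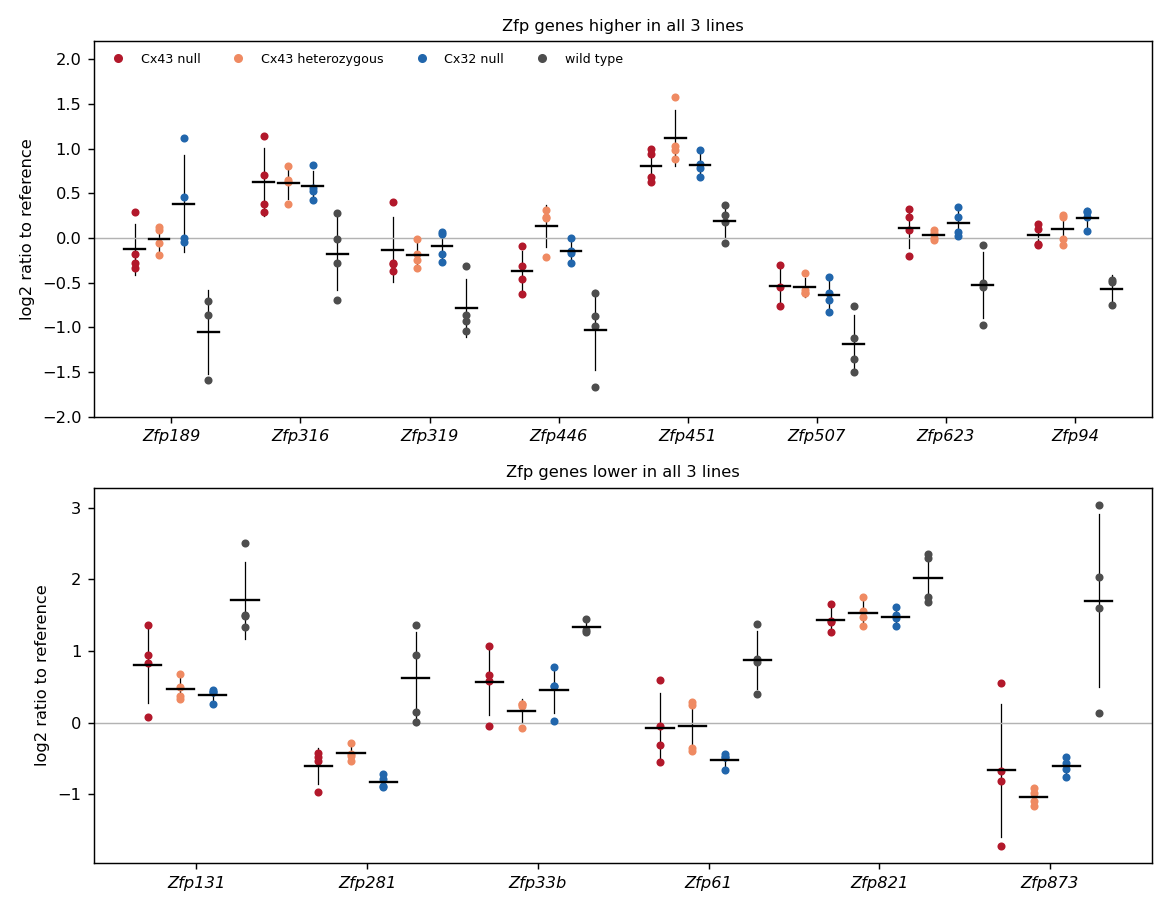
Log2 ratio to the reference, by array, of the 8 Zfp genes higher in all 3 lines (top) and the 6 lower in all 3 lines (bottom). Points are arrays, bars are group means and lines are 1 SD, for Cx43 null, Cx43 heterozygous, Cx32 null and wild-type brain from left to right. Wild-type points lie apart from the others for Zfp189, Zfp94, Zfp316, Zfp451, Zfp281 and Zfp33b, and 1 Cx43 null array of Zfp873 at 0.55 lies above the lowest wild-type array at 0.13.

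The calls shared by all 3 lines depended on Cx43 null brain. With all arrays 14 genes passed. The count was 7, 3, 9 and 24 without wild-type replicates 1, 2, 3 and 4, and 4, 0 and 2 without Cx43 null replicates 2, 3 and 4. It was 8, 7, 7 and 6 without Cx43 heterozygous replicates 1 to 4 and 8, 9 and 8 without Cx32 null replicates 2, 3 and 4. The share of all transcripts called in all 3 lines is not given for these fits. The Cx43 null calls of Zfp189 (16 of 26), Zfp446 (21 of 27), Zfp507 (20 of 26) and Zfp319 (19 of 27) were lost under most alternatives. Those of Zfp131 (9 of 27), Zfp61 (7 of 27), Zfp94 (7 of 26), Zfp316 (6 of 27), Zfp451 (6 of 27), Zfp281 (3 of 27) and Zfp873 (2 of 27) were lost under fewer. Zfp319 was also lost under 9 of 27 in Cx43 heterozygous and Zfp507 under 10 of 26 in Cx32 null brain. In Cx43 heterozygous and Cx32 null brain the changes of Zfp873, Zfp131, Zfp61, Zfp189, Zfp94, Zfp451 and Zfp446 passed under every alternative that could be fitted.

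Promoters of 4 of these genes are shown, because 2 lie in adjacent genes that moved in opposite directions and 2 share a stretch of letters. Each is the first 300-base window listed for the gene in a RefSeq promoter table for GRCm38.p6, 5′ to 3′ on the gene's own strand. Such windows follow a transcript start and need not begin at the outer edge of the gene. The windows of Zfp873 and Zfp94 begin 211 and 218 bases upstream of that edge, and those of Zfp33b and Zfp61 begin 847 and 4041 bases inside it. Zfp873 lies on the plus strand at chr10:82047873-82048172, Zfp33b on the plus strand at chr5:104571422-104571721, Zfp61 on the minus strand at chr7:24299500-24299799 and Zfp94 on the minus strand at chr7:24316617-24316916. Capitals mark a CCAAT box (CCAAT on either strand) and the stretch CTGCCAGTCAGAA.
Zfp873: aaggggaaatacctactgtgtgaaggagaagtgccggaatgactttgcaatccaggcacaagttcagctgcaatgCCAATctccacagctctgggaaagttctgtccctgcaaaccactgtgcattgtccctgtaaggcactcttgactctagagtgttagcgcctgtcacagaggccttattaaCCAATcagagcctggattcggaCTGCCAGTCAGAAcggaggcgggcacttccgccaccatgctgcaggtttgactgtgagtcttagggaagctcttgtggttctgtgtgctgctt
Zfp33b: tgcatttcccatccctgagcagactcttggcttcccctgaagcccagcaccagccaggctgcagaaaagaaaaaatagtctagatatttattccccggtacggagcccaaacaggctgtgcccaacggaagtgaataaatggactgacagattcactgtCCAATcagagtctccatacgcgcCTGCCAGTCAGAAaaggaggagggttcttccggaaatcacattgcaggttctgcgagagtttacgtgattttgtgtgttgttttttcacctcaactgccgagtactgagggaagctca
Zfp61: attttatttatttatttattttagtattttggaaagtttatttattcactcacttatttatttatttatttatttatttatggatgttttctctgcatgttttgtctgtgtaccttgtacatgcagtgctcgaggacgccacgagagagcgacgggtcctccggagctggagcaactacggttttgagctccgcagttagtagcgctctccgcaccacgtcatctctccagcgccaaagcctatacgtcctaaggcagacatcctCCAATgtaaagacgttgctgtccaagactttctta
Zfp94: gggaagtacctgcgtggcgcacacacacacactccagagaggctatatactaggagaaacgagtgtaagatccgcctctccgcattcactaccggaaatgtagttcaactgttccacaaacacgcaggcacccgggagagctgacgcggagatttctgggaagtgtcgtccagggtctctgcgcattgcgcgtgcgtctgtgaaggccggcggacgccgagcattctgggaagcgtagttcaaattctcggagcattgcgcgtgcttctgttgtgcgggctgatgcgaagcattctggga
CTGCCAGTCAGAA is the longest run of letters common to the windows of Zfp873 and Zfp33b on the printed strand. It stands downstream of a CCAAT box in both. It was searched after the sequences had been read. Of the 132 Zfp promoters found, only the 2 it was taken from, those of Zfp873 and Zfp33b, hold it on either strand. That count was thus set by the choice of the stretch. Of 27025 promoters in all, 46 hold it (0.17%). A CCAAT box was present in 6 of 6 promoters of the genes lower in all 3 lines and in 2 of the 6 found for the genes higher in all 3 lines, beside 41.7% of Zfp promoters and 37.9% of all promoters. Among Zfp genes that fell in 1 or more lines it was present in 9 of 12, and among those that rose in 15 of the 36 found (41.7%), the share of all Zfp promoters. A GC box (GGGCGG, either strand) was present in 3 of 6 promoters of the genes lower in all 3 lines. For the genes higher in all 3 lines it was present in 4 of the 6 found. Among Zfp genes that fell in 1 or more lines it was present in 6 of 12, and among those that rose in 20 of 36. The share was 55.3% of Zfp promoters, 63.7% of the 6924 promoters of named genes tested on the arrays and 35.9% of all promoters. The median number of CpG pairs was 17 in Zfp promoters and 21 in those of named genes tested. These matches are descriptions of letters in a window and no test was made of them. The windows of Zfp131, Zfp33b, Zfp61 and Zfp821 begin 495, 847, 4041 and 10006 bases inside the gene edge. Among those found for genes higher in all 3 lines, only the window of Zfp451 does (757 bases). The windows compared between the genes lower and higher in all 3 lines are thus placed differently.

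Zfp61 and Zfp94 are next to each other on chromosome 7 in the RefSeq order of protein-coding genes. Zfp61 fell and Zfp94 rose in each of the 3 lines, as given above. Of the 21 pairs of tested Zfp genes that are immediate neighbours, 16 had changes of the same sign in Cx43 null, 12 in Cx43 heterozygous and 13 in Cx32 null brain. Changes above 0 were found for 91, 98 and 89 of the 144 Zfp genes in these lines, so any pair of them often shares a sign. Some genes stand in more than 1 pair, and the agreement of neighbours was not tested. The adjacent Zfp324 and Zfp446, also on chromosome 7, both rose in Cx43 heterozygous (1.82 and 1.17) and Cx32 null brain (1.13 and 0.88).

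Zfp genes are unevenly placed in the genome, with 37 of the 165 on chromosome 7 and 24 on chromosome 17. Another Zfp gene is an immediate neighbour of 74 of them, 88 stand without one, and 3 could not be placed. Neighbours are judged by symbol, so a gene beside a zinc finger gene of another name counts as unclustered. Of the 65 clustered genes tested, 7 rose and 2 fell in Cx43 null, 21 rose and 4 fell in Cx43 heterozygous, and 17 rose and 5 fell in Cx32 null brain. Of the 77 unclustered genes tested, 5 rose and 5 fell in Cx43 null, 18 rose and 6 fell in Cx43 heterozygous, and 15 rose and 6 fell in Cx32 null brain. The median log2 change of clustered genes was 0.27, 0.32 and 0.31 in Cx43 null, Cx43 heterozygous and Cx32 null brain, beside 0.040, 0.19 and 0.11 for unclustered genes. Of all transcripts, 4.37% rose and 6.43% fell in Cx43 null, 13.5% and 17.5% in Cx43 heterozygous, and 13.1% and 14.3% in Cx32 null brain. The difference between clustered and unclustered genes was not tested.

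In Cx43 null brain, 7 of the 12 Zfp genes that rose and 4 of the 7 that fell had arrays that did not overlap with wild type (58.3% and 57.1%), beside 66.7% and 59.3% of all transcripts that rose and fell. Besides the genes above, Zfp994 read 0.23, 0.23, 0.31 and 0.51 in Cx43 null brain, against -0.38, -0.57 and -0.53 on the 3 wild-type arrays with a value. Its change of 0.81 ± 0.18 SE, adjusted p = 0.0168 passed under 23 of 26 alternatives. Zfp612 read 1.19, 0.86, 0.53 and 0.57 in Cx43 null brain, against -0.73, 0.21 and 0.087 on 3 wild-type arrays (0.93 ± 0.24 SE, adjusted p = 0.025), from 1 spot in a block where wild-type replicate 4 was out of step. Zfp524, whose human counterpart binds telomeres, read -0.48, -0.31, -0.41 and -0.32 in Cx43 null brain, against -1.30, -0.77, -0.95 and -0.69 in wild-type brain, without overlap (0.55 ± 0.17 SE, adjusted p = 0.0466).

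Zfp746 encodes Paris, a parkin substrate that represses the gene of the mitochondrial coactivator Pgc-1alpha. It read 0.62, 0.66, -0.055 and 0.56 in Cx43 null brain, against 2.00, 1.18, 0.86 and 1.07 in wild-type brain, and all Cx43 null arrays lay below the wild-type ones. The log2 change was -0.83 ± 0.26 SE, adjusted p = 0.0497. It was lost under 18 of 26 alternatives, and that of Zfp524 under 22 of 27.

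In Cx43 heterozygous brain, 30 of the 39 Zfp genes that rose did not overlap with wild type, and 8 of the 10 that fell (76.9% and 80%), near the 77.8% and 84.5% of all transcripts that rose and fell. Zfp324 read 2.66, 0.76, 1.33 and 1.16 in Cx43 heterozygous brain, against -1.03, -0.19, 0.22 and -0.38 in wild-type brain. The arrays did not overlap, and the rise of 1.82 ± 0.37 SE, adjusted p = 0.00218 was the largest among the Zfp genes tested. Zfp407, which in mouse adipocytes supports expression of insulin-response genes, read 2.67, 1.59, 1.12 and 1.23 in Cx43 heterozygous brain, against 0.39, 0.31, 0.40 and 0.087 in wild-type brain. Both of its spots were higher and the change was 1.36 ± 0.29 SE, adjusted p = 0.0028. Replicate 1 was the highest heterozygous array for Zfp324 and Zfp407.

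Zfp946 read 0.65, 1.20, 1.25 and 1.68 in Cx43 heterozygous brain, against 0.52, 0.18 and -0.083 on 3 wild-type arrays (0.99 ± 0.23 SE, adjusted p = 0.00523). The arrays did not overlap. Zfp735 averaged 0.043 ± 0.23 in Cx43 heterozygous and -0.95 ± 0.056 in wild-type brain (SD, n = 3 each), a change of 1.00 ± 0.31 SE, adjusted p = 0.0244. Zfp708 (1.60 ± 0.39 SE, adjusted p = 0.00705) and Zfp580 (1.22 ± 0.26 SE, adjusted p = 0.0034) also rose, each through a spot in a block out of step. Without those blocks neither gene could be tested. Another Zfp708 spot, outside those blocks and with too few values for a test, moved the other way. It differed from wild type by -1.05 in Cx43 heterozygous brain.

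Among the Zfp genes that fell in Cx43 heterozygous brain, Zfp110 encodes a partner of the p75 neurotrophin receptor. It read -0.14, -0.44, -0.47 and -0.27 in Cx43 heterozygous brain, against 0.17, 0.63, 0.52 and 0.020 in wild-type brain. Both of its spots were lower, and the change was -0.66 ± 0.18 SE, adjusted p = 0.0129. The spot with the larger fall (-0.85 beside -0.48) lies in a block where wild-type replicate 4 was out of step. The call of Zfp110 was lost with values as deposited and without wild-type replicate 1 and the blocks out of step. In Cx32 null brain, where Zfp110 also fell, the call was lost without those blocks. Zfp777 read -0.93, -1.05 and -1.31 on 3 Cx43 heterozygous arrays, against 0.027, -0.57, -0.41 and -0.43 in wild-type brain (-0.75 ± 0.20 SE, adjusted p = 0.0119). With at least 2 values per group, which admits a further spot, its difference was 0.21. Zfp871, on 3 spots, averaged 1.04 ± 0.37 in Cx43 heterozygous and 1.63 ± 0.15 in wild-type brain (SD, n = 4 each), a change of -0.59 ± 0.18 SE, adjusted p = 0.0221.

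In Cx32 null brain, 24 of the 32 Zfp genes that rose and 10 of the 11 that fell did not overlap with wild type (75% and 90.9%), beside 79.2% and 82.2% of all transcripts that rose and fell. Zfp946 read 1.33, 1.09, 1.17 and 1.55 in Cx32 null brain, against the 3 wild-type values given above, a rise of 1.08 ± 0.23 SE, adjusted p = 0.00434. Zfp280b read 0.19, 0.23, -0.34 and 0.00054 in Cx32 null brain, against -1.46, -0.72, -0.84 and -0.57 in wild-type brain. No array overlapped and the change was 0.92 ± 0.20 SE, adjusted p = 0.00514. Zfp229 read -0.47, 0.0057, -0.37 and 0.20 in Cx32 null brain, against -1.59, -1.10, -1.04 and -0.57 in wild-type brain (0.91 ± 0.23 SE, adjusted p = 0.0101).

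Zfp113 read -0.011, 0.38, 0.85 and 0.75 in Cx32 null brain, against -0.60, -0.36, -0.35 and -0.28 in wild-type brain. Cx32 null arrays all lay above wild type and the change was 0.89 ± 0.19 SE, adjusted p = 0.00424. Zfp467, which in mouse steers precursor cells between fat and bone, read 0.98, 0.58, 0.52 and 0.97 in Cx32 null brain, against -0.18, -0.23, 0.12 and 0.20 in wild-type brain (0.79 ± 0.19 SE, adjusted p = 0.008). Zfp334 fell, reading 0.32, 0.090, -0.037 and 0.16 in Cx32 null brain, against 0.78, 1.09, 1.22 and 0.45 in wild-type brain (-0.75 ± 0.24 SE, adjusted p = 0.0266). With at least 2 values per group, which admits a further Zfp334 spot, its difference was 0.13.

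Differences between the lines were few. In Cx43 null against Cx43 heterozygous brain 0 of 144 Zfp genes were higher and 1 was lower, beside 0.77% and 0.686% of all transcripts. In Cx43 null against Cx32 null brain no Zfp gene passed, beside 0.07% of all transcripts higher and 0.014% lower. In Cx43 heterozygous against Cx32 null brain no Zfp gene passed either, beside 0.903% higher and 0.329% lower. At an unadjusted p under 0.05 in limma, 21, 8 and 13 Zfp genes (14.6%, 5.56% and 9.03%) passed in the 3 comparisons, near or below the 13.7%, 9.12% and 11.4% of all transcripts, and missing the threshold does not show that the lines were alike.

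The gene that passed was Zfp518a, on 1 spot. It read -0.23, -0.58, -0.93 and -0.61 in Cx43 null brain and 0.49, 1.39, 0.79 and 1.46 in Cx43 heterozygous brain, and the 2 groups did not overlap. Cx32 null and wild-type brain lay between them or across both, at -0.65, 0.55, 0.14 and 0.58 and 0.30, 0.64, -0.56 and -0.83. The difference of Cx43 null from Cx43 heterozygous brain was -1.62 ± 0.33 SE (95% interval -2.32 to -0.92, adjusted p = 0.0224), or 3.07-fold lower. Against wild type it rose in Cx43 heterozygous brain (1.14 ± 0.33 SE, adjusted p = 0.0157) and had a change of -0.48 ± 0.33 SE, adjusted p = 0.339 in Cx43 null brain.

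A list of 31 Zfp genes with a described role was drawn up, and 14 of them were tested. It is not complete, as genes outside it named above, such as Zfp189 and Zfp451, also have described roles and passed. In Cx43 null brain 0 rose and 1 fell, in Cx43 heterozygous brain 2 rose and 2 fell, and in Cx32 null brain 0 rose and 2 fell, with median log2 changes of -0.066, 0.018 and -0.14. The 4 calls in Cx43 heterozygous brain are close in share to the 13.5% of all transcripts that rose there plus the 17.5% that fell. The genes that fell were Zfp281 and Zfp110. Those that rose were Zfp703 and Zfp804a, in Cx43 heterozygous brain. Zfp703, a member of the Nlz family of repressors, read 0.37, 0.36, -0.10 and 0.17 in Cx43 heterozygous brain, against -0.64, -0.22 and -0.30 on 3 wild-type arrays (0.58 ± 0.19 SE, adjusted p = 0.0257). Zfp804a, whose human counterpart lies in a schizophrenia risk locus, read 0.18, 0.24, 0.16 and 0.11 in Cx43 heterozygous brain, against -0.26, -0.56, -1.10 and -0.11 in wild-type brain (0.68 ± 0.19 SE, adjusted p = 0.0141).

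The other tested genes of this list did not pass in any line. Zfp335, whose human counterpart is mutated in microcephaly, averaged 0.45 ± 0.16 in Cx43 null, 0.62 ± 0.063 in Cx43 heterozygous, 0.63 ± 0.24 in Cx32 null and 0.30 ± 0.42 in wild-type brain (SD, n = 4 each). Zfp462, a gene of neural development in human patients, averaged 0.30 ± 0.025, 0.71 ± 0.53, 0.89 ± 0.44 and 0.27 ± 0.36 in the same groups. Zfp24, needed for myelination by mouse oligodendrocytes, averaged 0.13 ± 0.19 in Cx43 null, 0.13 ± 0.080 in Cx43 heterozygous, 0.45 ± 0.58 in Cx32 null and 0.22 ± 0.52 in wild-type brain, with a change of 0.23 in Cx32 null brain (95% interval -0.33 to 0.78). The other members had log2 changes between -0.62 and 0.65 over the 3 lines. They are Zfp148, Zfp207 (which binds spindle microtubules), Zfp292, Zfp369 (a relative of Zfp110), Zfp503 (of the Nlz family), the imprinting factor Zfp57 and Zfp91.

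Zfp36l1 and Zfp36l2, which bind AU-rich elements and promote messenger RNA decay, did not pass in any line. Zfp36l1 read 0.065, 0.063, -0.37 and -0.76 in Cx43 null, -0.69, -0.47, -0.53 and -1.13 in Cx43 heterozygous, -0.31, -0.42, -0.48 and -0.59 in Cx32 null and 1.63, -0.41, -0.31 and -0.43 in wild-type brain. Wild-type replicate 1 alone lay far above its group, but only 1 of the tested spots of the gene had a value there. Zfp36l2 averaged -0.86 ± 0.48 on 3 Cx43 null arrays, -0.30 ± 0.65 in Cx43 heterozygous, -0.59 ± 0.18 in Cx32 null and 0.020 ± 0.90 in wild-type brain (SD).

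Ratios of Zfp genes to the adult tissue reference lay above 0, the array median, more often than those of transcripts in general. Over all 16 arrays the median log2 ratio of the 144 genes was 0.20, with a range of -0.86 to 2.23, and that of all transcripts was -0.023. A mean above 0 was found for 86 of 144 Zfp genes (59.7%) and for 48.8% of all transcripts. On every array with a value, 34 Zfp genes (23.6%) were above 0, beside 20.1% of all transcripts, and 8 (5.56%) were below 0, beside 18.7% of all transcripts. The reference itself holds brain RNA and its tissues are adult, so brain and age cannot be told apart here. Bulk RNA does not separate fewer cells of a type from less RNA per cell.

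The highest ratio belonged to Zfp57, the KRAB gene that keeps methylation at imprinted loci. It read 2.33, 2.26, 2.70 and 2.49 in Cx43 null, 1.99, 1.86, 3.06 and 2.42 in Cx43 heterozygous, 1.57, 1.87, 1.70 and 2.55 in Cx32 null and 1.71, 2.27, 3.22 and 1.62 in wild-type brain. The lowest of all 16 arrays was 1.57 and the groups overlapped. Zfp157 followed with a mean of 2.06 (1 spot, in a block out of step), then Zfp512 with 1.92, Zfp428 with 1.91, Zfp638 with 1.84 and Zfp821 with 1.62. The spreads of these neighbours in the order overlapped. Zfp638, which in mouse supports fat cell differentiation, averaged 2.19 ± 0.59 in Cx43 null, 1.52 ± 0.47 in Cx43 heterozygous, 1.65 ± 0.18 in Cx32 null and 1.99 ± 0.76 in wild-type brain (SD, n = 4 each). None of Zfp57, Zfp157, Zfp512, Zfp428 and Zfp638 passed in any line against wild type.

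At the low end stood Zfp777 with a mean ratio of -0.86, Zfp219 with -0.78, Zfp35 with -0.74, Zfp507 with -0.73, Zfp367 with -0.72 and Zfp655 with -0.66. Zfp219, a partner of Sox9 in mouse cartilage, varied widely within groups. It averaged -0.75 ± 0.37 in Cx43 null, -1.30 ± 0.66 in Cx43 heterozygous, -1.06 ± 0.59 in Cx32 null and 0.0048 ± 0.68 in wild-type brain (SD, n = 4 each). It fell in Cx43 heterozygous (-1.30 ± 0.36 SE, adjusted p = 0.0129) and Cx32 null brain (-1.07 ± 0.36 SE, adjusted p = 0.0373), and its arrays overlapped with wild type in both. Zfp35 and Zfp655 were below 0 on every array with a value and did not pass in any line.

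**Figure D3:**
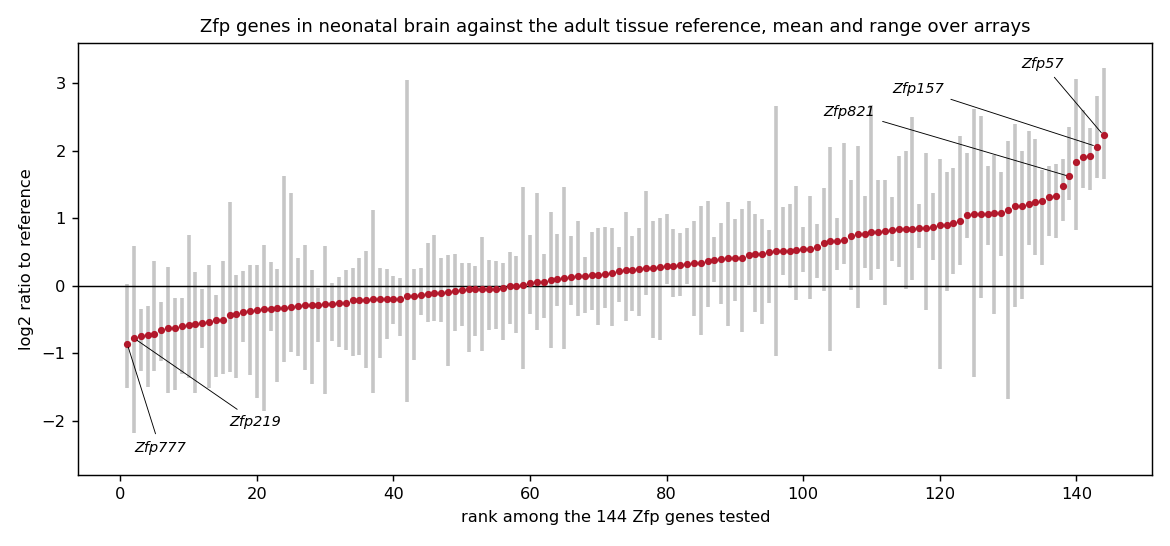
Log2 ratio to the adult tissue reference of the 144 Zfp genes tested, ordered by their mean over arrays (points), with grey bars from the lowest to the highest array. Means run from -0.86 for Zfp777 to 2.23 for Zfp57, and for most genes the bar crosses 0.

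Genes read by several spots show how far 1 spot speaks for a gene. For the 48 Zfp genes with 2 or more tested spots, the 106 pairs of spots had a median correlation of 0.31 across arrays, from -0.77 to 0.95. These arrays share groups and the shared reference. The 4 spots of Zfp131 differed from wild type by -0.93, -0.81, -1.08 and -0.13 in Cx43 null, by -1.28, -1.30, -1.66 and -0.052 in Cx43 heterozygous and by -1.40, -1.28, -1.60 and -0.32 in Cx32 null brain. All but the last of these spots moved together, and the last stayed nearer to wild type. The last 2 had no value on wild-type replicate 1. The 4 spots of Zfp821 ranged from -0.93 to -0.16 in Cx43 null, -1.07 to -0.10 in Cx43 heterozygous and -1.10 to 0.065 in Cx32 null brain.

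Zfp618, whose human counterpart binds the chromatin protein UHRF2, had 6 spots, and all 6 were higher than wild type in each line. Their differences ran from 0.091 to 0.94 in Cx43 null, 0.12 to 1.20 in Cx43 heterozygous and 0.12 to 1.35 in Cx32 null brain. The mean over spots read 0.36, 0.40, 0.75 and 0.46 in Cx43 null, 0.67, 0.61, 0.98 and 0.43 in Cx43 heterozygous, 0.38, 1.07, 0.55 and 0.94 in Cx32 null and -0.39, 0.051, 0.0075 and 0.27 in wild-type brain, with no overlap between any line and wild type. It rose by 0.69 ± 0.20 SE, adjusted p = 0.0143 in Cx43 heterozygous and 0.75 ± 0.20 SE, adjusted p = 0.0111 in Cx32 null brain, and its change in Cx43 null brain was 0.51 ± 0.20 SE, adjusted p = 0.094. The 5 tested spots of Zfp592 had a gene mean that differed by 0.21, 0.43 and 0.30 in the 3 lines and did not pass.

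**Figure D4:**
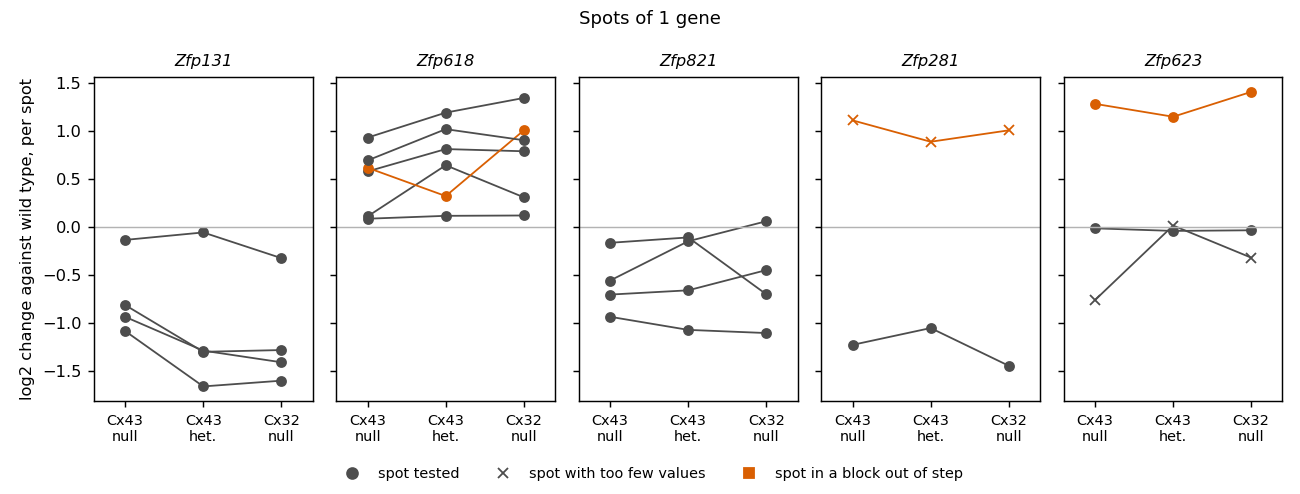
Difference of group means from wild type, on the log2 scale, for each spot of Zfp131, Zfp618, Zfp821, Zfp281 and Zfp623 in the 3 lines. Circles are tested spots, crosses are spots with too few values for a test and orange marks spots in a block out of step. All Zfp618 spots lie above 0, while the spots of Zfp281 and Zfp623 disagree.

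KRAB zinc finger proteins act through a co-repressor complex, and 25 of 30 listed genes of this machinery were tested. In Cx43 null brain 0 rose and 2 fell, in Cx43 heterozygous brain 1 rose and 4 fell, and in Cx32 null brain 3 rose and 3 fell. These counts lie near or below the shares of all transcripts, of which 6.43%, 17.5% and 14.3% fell and 4.37%, 13.5% and 13.1% rose in the same lines. The median log2 change of the list was 0.029, -0.083 and 0.075. Trim28, the scaffold that KRAB domains bind, had log2 ratios of 2.67, 1.27, 0.37 and 0.87 in Cx43 null, 0.55, 0.42, 0.41 and 0.42 in Cx43 heterozygous, 0.95, 0.76, 0.63 and 0.81 in Cx32 null and 1.41, 2.34, 1.91 and 2.76 in wild-type brain. Heterozygous and Cx32 null arrays all lay below wild type. Trim28 fell in Cx43 heterozygous (-1.66 ± 0.36 SE, adjusted p = 0.00315) and Cx32 null brain (-1.32 ± 0.36 SE, adjusted p = 0.0135) and had a change of -0.81 ± 0.36 SE, adjusted p = 0.134 in Cx43 null brain. Its 2 spots differed from wild type by -2.01 and -1.30 in Cx43 heterozygous, -1.68 and -0.96 in Cx32 null and -1.48 and -0.14 in Cx43 null brain.

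Setdb1, the histone methyltransferase recruited by Trim28, did not pass in any line, with changes of -0.074, -0.083 and -0.093 in Cx43 null, Cx43 heterozygous and Cx32 null brain. Gatad2a, a subunit of the NuRD deacetylase complex, read 0.028, -0.36, -1.15 and -0.15 in Cx43 null, -0.57, -0.66, -1.09 and -0.82 in Cx43 heterozygous, -0.33, -0.69, -0.34 and -0.36 in Cx32 null and 1.37, 0.87, 0.61 and 0.57 in wild-type brain. No array of the lines reached wild type, and its log2 change was -1.26 ± 0.24 SE, adjusted p = 0.00974 in Cx43 null, -1.64 ± 0.24 SE, adjusted p = 0.000245 in Cx43 heterozygous and -1.29 ± 0.24 SE, adjusted p = 0.00198 in Cx32 null brain. Gatad2a was tested on 1 spot. Its call in Cx43 null brain was lost with at least 2 values per group and with the compared groups fitted alone. Over the alternatives its smallest changes were -0.62 in Cx43 null, -0.76 in Cx43 heterozygous and -0.59 in Cx32 null brain. Mta2, another NuRD subunit, had a log2 change of -0.86 ± 0.19 SE, adjusted p = 0.0161 in Cx43 null, -0.78 ± 0.19 SE, adjusted p = 0.00625 in Cx43 heterozygous and -0.64 ± 0.19 SE, adjusted p = 0.0208 in Cx32 null brain, and both of its spots were lower in each line.

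Hdac1, a deacetylase of that complex, fell in Cx43 heterozygous brain (-0.74 ± 0.25 SE, adjusted p = 0.0312). Its spots differed from wild type by -1.02, -1.04 and, in a block out of step, -0.16, and the call was lost under 5 of 27 alternatives. Spots of Hdac2 differed by 0.21, -0.21 and 0.87 in the same line. The listed genes Hdac2, Gatad2b, Mta1, Chd4 and Rbbp4 did not pass in any line. The de novo DNA methyltransferase gene Dnmt3a rose in Cx43 heterozygous (0.62 ± 0.18 SE, adjusted p = 0.0158) and Cx32 null brain (0.82 ± 0.18 SE, adjusted p = 0.00456), through 2 of its 3 spots. Chd3, a NuRD helicase, rose in Cx32 null brain (0.69 ± 0.23 SE, adjusted p = 0.0345), where 1 spot differed from wild type by 2.23 and the other 2 by 0.068 and -0.24. Cbx1, a heterochromatin protein gene, rose there as well (0.57 ± 0.17 SE, adjusted p = 0.0203).

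**Figure D5:**
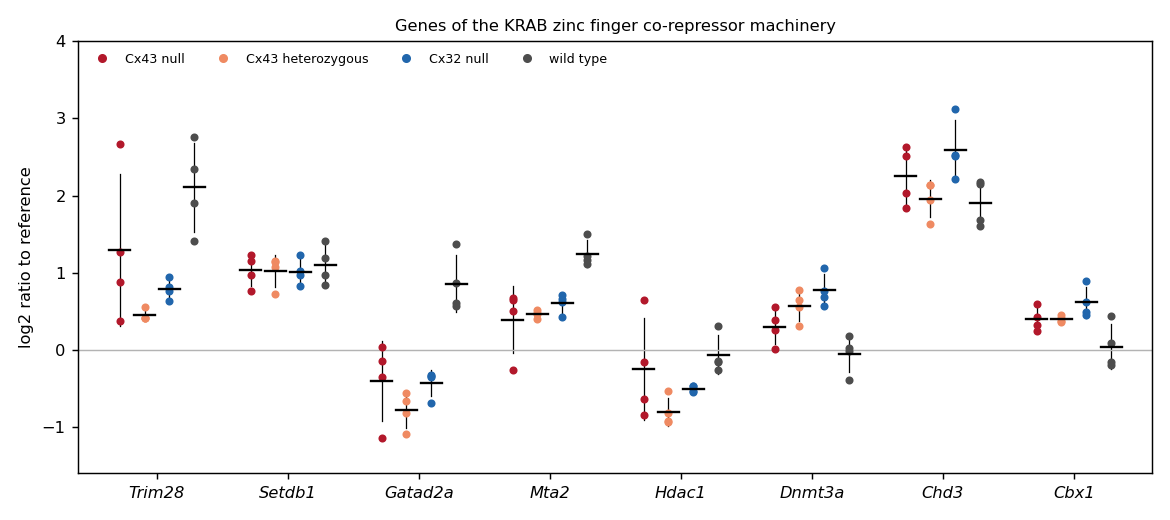
Log2 ratio to the reference, by array, of genes of the KRAB zinc finger co-repressor machinery. Points are arrays, bars are group means and lines are 1 SD, for Cx43 null, Cx43 heterozygous, Cx32 null and wild-type brain from left to right. Gatad2a and Mta2 lie below wild type in all 3 lines, Trim28 in Cx43 heterozygous and Cx32 null brain, and the groups of Setdb1 overlap.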

How the data were processed

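RNA of 16 neonatal mouse brain samples was hybridised to cDNA arrays with 2 colours. The authors deposited a log ratio for each spot of an array, taken here as log2. Per the labels, the reference carried Cy5 on all arrays and brain Cy3 on 14, with the dye of wild-type replicates 3 and 4 unstated. The log base, the numerator and the normalization within an array are not given in the sources used here, so folds assume base 2, and directions assume that brain is the numerator. The title of wild-type replicate 3 was followed where its channel label gives another number. That Cx32 null brains are neonatal comes from their descriptions alone.

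Symbols came from the platform annotation, and all 165 Zfp symbols are listed in RefSeq. Each array was centred on its median, a spot needed 3 of 4 values in each group, and spots of 1 gene were averaged. With limma 3.58.1 in R 4.3.3, lmFit and eBayes estimated 4 group means from 16 arrays, 6 contrasts were tested two-sided, and p-values were adjusted over all 14292 transcripts. No spot intensities were used, so the number of arrays limits the precision. The fit was tested on simulated data. The genes named are, per line, up to 8 rises and 8 falls that passed without overlap with wild type, the extremes of the ratio to the reference, genes that passed in all 3 lines, genes with a described role, genes with most spots, and co-repressor genes that passed, with Trim28 and Setdb1. The genes with a described role are those tested from a list of 31. The members and lists were chosen with earlier results of these data known. Alternatives covered scaling, filters, spots, blocks, the samples fitted, the prior and arrays left out.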

Additional observations from a re-analysis of the deposited data

Results flagged for a closer look

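A Zfp gene differed between lines in 1 case: Zfp518a was lower in Cx43 null than in Cx43 heterozygous brain, with a tested log2 difference of -1.62.

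In 208 groups of 4 arrays over the named Zfp genes, 14 (6.73%) had 1 array far from the other 3 by Dixon's criterion at the 95% level, which chance meets in about 1 of 20 groups. In wild-type brain, replicate 1 read 2.50 for Zfp131 (others 1.34 to 1.50), 1.63 for Zfp36l1 (others -0.43 to -0.31), 1.06 for Zfp207 (others 0.21 to 0.25) and 0.37 for Zfp369 (others -0.47 to -0.35), and replicate 4 read 0.87 for Zfp638 (others 2.24 to 2.47). The replicate 1 values of Zfp131 and Zfp36l1 lack tested spots that were read on the other wild-type arrays. They are therefore not means over the same spots. In Cx43 null brain, replicate 3 read -0.055 for Zfp746 (others 0.56 to 0.66), -1.27 for Zfp367 (others -0.62 to -0.55) and 0.41 for Zfp319 (others -0.37 to -0.28), and replicate 1 read -0.031 for Zfp113 (others 0.20 to 0.23). In Cx43 heterozygous brain, replicate 3 read -0.073 for Zfp33b (others 0.23 to 0.26) and -0.40 for Zfp507 (others -0.61 to -0.59), replicate 4 read -0.21 for Zfp446 (others 0.22 to 0.31) and replicate 2 read -1.19 for Zfp91 (others -0.28 to -0.23). In Cx32 null brain, replicate 4 read -0.66 for Zfp61 (others -0.48 to -0.44).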

How the results depend on the processing

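The count of Zfp genes that passed in Cx43 heterozygous against wild-type brain stayed between 34 and 67 under all 27 alternatives, beside 49, and no Zfp gene passed between Cx43 null and Cx32 null brain under any of them. In Cx43 null against wild-type brain the count of 19 became 12 with all 4 values required, 10 with 2 values required, 0 with the compared groups fitted alone, and 9 without wild-type replicate 1 and the blocks out of step, an alternative chosen after seeing the data. It ranged from 0 to 30 with 1 array left out. Under quantile scaling 10 rose and 3 fell, beside 12 and 7. In Cx32 null brain the count of 43 became 26 with the compared groups alone and ranged from 28 to 47 with 1 array left out. The 14 genes called in all 3 lines became 7 with 2 values required, 22 with each spot on its own, 0 with compared groups alone and 7 without wild-type replicate 1 and the blocks, and 0 to 24 with 1 array left out. For Cx43 null against Cx43 heterozygous brain a count of 1 became 3 under quantile scaling, 2 under cyclic loess, 2 with 2 values required, 3 without wild-type replicate 1 and the blocks, and 0 to 2 with 1 array left out. Between Cx43 heterozygous and Cx32 null brain the count of 0 became 1 as deposited, 2 under quantile scaling, 2 under cyclic loess, 3 with each spot on its own, 1 with compared groups alone, 2 without wild-type replicate 1 and the blocks, and 0 to 1 with 1 array left out. The causes were not tested, and these counts stand without the shares of all transcripts under the same settings.

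The median ratio to the reference, 0.20, was 0.28 as deposited and 0.31 under quantile scaling. As deposited, the median of all transcripts in Cx43 heterozygous against wild-type brain was 0.15 and that of Zfp genes 0.46, with 53 Zfp genes higher and 7 lower and 21.2% of all transcripts higher and 12.6% lower. Zfp623 turned to -0.0090, -0.036 and -0.029 in Cx43 null, Cx43 heterozygous and Cx32 null brain without the blocks out of step, and to -0.14, -0.17 and -0.16 without wild-type replicate 1 as well. With 2 values required, Zfp777 turned to 0.21 in Cx43 heterozygous and Zfp334 to 0.13 in Cx32 null brain, since a further spot enters.

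With the replicate number as a block, 14 Zfp genes passed in Cx43 null, 52 in Cx43 heterozygous and 42 in Cx32 null brain. Arrays with the same number had correlations of -0.26 to 0.23 (median 0.018) between their deviations. For arrays with different numbers they were -0.299 to 0.315 (median 0.002). Of the 16 arrays, 3 correlated best with their own number. These values show no pairing by number but cannot exclude one. Signal over background is unknown, which limits what can be said of weak spots.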
